A study of Arabidopsis thaliana with 36 samples.

Results

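The transcripts described here are those of 7 Arabidopsis thaliana genes that form a route for disarming cadmium: GSH1 and GSH2 make glutathione, PCS1 and PCS2 make phytochelatins from it, and ABCC1, ABCC2 and ABCC3 load the vacuole. They were taken from the table of gene counts by their locus codes and are 7 of its 28775 genes. No measured value was used as a filter, but the list was drawn up with earlier results of these data known. Polyadenylated RNA was sequenced from 4 groups: shoots and roots of the mutant opt3-2, and shoots and roots of the wild type, accession Col-0. All plants were raised on plates (11 d) and in hydroponic culture (22 d) in days of 16 h light and 8 h dark. Both genotypes then received 20 µM CdCl2 for 72 h before harvest, so the controls carry the metal treatment too. Each RNA came from 3 to 4 pooled plants. The response to cadmium itself was not measured, since untreated plants were not analysed here. OPT3, the gene altered in opt3-2, encodes a transporter of the phloem that takes part in sending iron and iron status from shoots to roots. Transcript was still measured in opt3-2 (below), which makes the line one with low OPT3 transcript rather than none.

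Glutathione is a tripeptide thiol built stepwise: glutamate-cysteine ligase joins cysteine to glutamate, and glutathione synthetase adds glycine. Phytochelatin synthase is an enzyme that is activated by metal ions such as cadmium and strings glutathione units into longer thiol peptides, which bind the metal in the cytosol. ABCC-type transporters of the vacuolar membrane then carry the peptides and their metal complexes into the vacuole, where the metal is kept away from sensitive enzymes. In Arabidopsis this route is the main defence against cadmium, and plants that lack PCS1, or that make little glutathione, are hypersensitive to the metal.

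The 36 sequenced samples are 3 biological replicates of each group in 3 technical replicates each, and were summed to 12 libraries, n = 3 per group. Total counts per library were 21262406 to 29692680 in opt3-2 shoots and 27229534 to 33221855 in wild type shoots. They were 22449113 to 25141843 in opt3-2 roots and 35523985 to 36484138 in wild type roots. OPT3 stood at 17.6 to 24.1 CPM (counts at a library size scaled to be equal) in opt3-2 shoots, against 321 to 389 CPM in wild type shoots. It stood at 4.13 to 9.02 CPM in opt3-2 roots, against 38.4 to 47.9 CPM in wild type roots. Summed CPM of 6 leaf marker genes lay between 98.9 and 153 in roots and between 29470 and 40930 in shoots, and those of 6 root markers between 2155 and 3424 in roots and between 85.4 and 118 in shoots, so the tissues match their labels. The labels call the replicates biological but do not say that they were grown apart, so the p-values measure the spread between these plant samples. The columns also carry run suffixes of unstated meaning: 1 to 3 in every opt3-2 library, and 2 to 4 or 5 to 7 in those of wild type.

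The members lie on all 5 nuclear chromosomes. In TAIR10.1 coordinates GSH1 (AT4G23100) occupies chr4:12102135-12107695 on the minus strand, GSH2 (AT5G27380) chr5:9667912-9671015 on the minus strand, and PCS1 (AT5G44070, listed as CAD1 in RefSeq) chr5:17734706-17737859 on the plus strand. PCS2 (AT1G03980) occupies chr1:1019311-1022108 on the minus strand, ABCC1 (AT1G30400) chr1:10727317-10738092 on the plus strand, ABCC2 (AT2G34660) chr2:14602470-14612565 on the plus strand, and ABCC3 (AT3G13080) chr3:4195770-4201734 on the minus strand. No annotated gene overlaps the exons of a member. PCS1 and PCS2 share 84.8% of aligned coding bases, ABCC1 and ABCC2 85.8%, and ABCC1 and ABCC3 60.0%. Even so, of all 50-base windows along the exons of the members, 1 of 5381 in ABCC3, and 0 of those in each of the other 6 genes, occurs elsewhere in the nuclear genome, so reads of that length can tell the copies apart. How reads with several matches were counted is not given in the sources used here.

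The sequences just upstream of the 4 synthesis genes are shown because GSH1 and GSH2 were both called lower in opt3-2 shoots, and of the near copies PCS1 and PCS2 only PCS2 was called, in roots. Each runs 5′ to 3′ on the gene's strand and ends at the base before the annotated gene start (TAIR10.1 genome, RefSeq annotation). Capitals mark matches, on either strand, to letters searched for: TTGAC or its complement GTCAA, the core bound by WRKY factors; GAGAC or GTCTC, a core linked to sulfur limitation; GAANNTTC, a core of heat shock elements; and CACGTG, the G-box. None of these letter strings contains another. The windows are chr4:12107696-12107945 (minus strand) for GSH1, chr5:9671016-9671265 (minus strand) for GSH2 and chr5:17734456-17734705 (plus strand) for PCS1, 250 bases each. That of PCS2, chr1:1022109-1022250 (minus strand), is 142 bases long because the annotated gene AT1G03982 lies beyond.
GSH1: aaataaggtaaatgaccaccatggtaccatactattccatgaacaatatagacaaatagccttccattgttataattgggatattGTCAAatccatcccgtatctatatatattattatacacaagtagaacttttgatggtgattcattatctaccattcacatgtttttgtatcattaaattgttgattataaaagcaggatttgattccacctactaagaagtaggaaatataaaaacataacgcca
GSH2: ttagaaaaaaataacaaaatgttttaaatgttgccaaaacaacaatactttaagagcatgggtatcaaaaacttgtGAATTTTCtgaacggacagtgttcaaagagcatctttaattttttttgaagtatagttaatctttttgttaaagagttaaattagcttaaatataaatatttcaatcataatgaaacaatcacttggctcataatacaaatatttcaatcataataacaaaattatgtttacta
PCS1: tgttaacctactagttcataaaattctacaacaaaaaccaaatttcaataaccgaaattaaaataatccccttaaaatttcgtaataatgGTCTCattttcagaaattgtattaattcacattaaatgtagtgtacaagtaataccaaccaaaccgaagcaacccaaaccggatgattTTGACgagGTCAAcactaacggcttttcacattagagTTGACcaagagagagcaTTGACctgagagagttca
PCS2: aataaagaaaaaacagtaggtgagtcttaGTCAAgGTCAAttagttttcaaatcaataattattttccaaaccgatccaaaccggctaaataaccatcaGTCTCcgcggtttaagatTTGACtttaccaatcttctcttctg
PCS1 holds 4 matches to TTGAC, starting at -72, -64, -35 and -18 from the gene start, and PCS2 holds 3, at -113, -107 and -25. GSH1 holds 1, at -165, and GSH2 none. Among 27437 promoters of 250 bases in the same annotation 44.9% hold at least 1 match, 3.38% at least 3 and 0.72% at least 4. Both phytochelatin synthase genes also hold 1 match to GAGAC, at -160 in PCS1 and at -43 in PCS2, as do 25.8% of all promoters. GAANNTTC occurs in 9.6% of promoters and in those of GSH2 (-174), ABCC1 (-233) and ABCC3 (-248). CACGTG occurs in 6.5% of promoters and in none of the 7. ABCC2 holds 1 match to TTGAC, at -52. These matches describe letters in a window and do not show that a factor binds.

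Between the genotypes, both glutathione synthesis genes, GSH1 and GSH2, were lower in opt3-2 shoots and the transporter genes ABCC1 and ABCC2 were higher, 2 genes each way of 7. PCS1, PCS2 and ABCC3 did not pass in shoots. Over all genes, 43.9% of the 21887 tested were called at this threshold in shoots (21.3% higher, 22.6% lower), so 4 of 7 is near the background and is not a result about the set. In roots PCS2, ABCC2 and ABCC3 were higher and 0 members lower, where 39.0% of all genes were called (17.5% higher, 21.5% lower). That count of 0 lower members, from edgeR, was also 0 at an unadjusted p under 0.05, in DESeq2 and in limma-voom, while DESeq2 called 4 members higher. In roots too, 3 of 7 called is near the background, and neither count is a result about the set. The members' median log2 fold change was 0.05 in shoots and 0.16 in roots, against -0.0002 and -0.0126 over all genes tested. The shoot median is the value of PCS2, which rests on 8 reads in opt3-2 shoots and 10 in wild type shoots. Nothing is read from it about the set. All 7 members passed the low-count filter, but PCS2 did so only through roots.

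**Figure D1:**
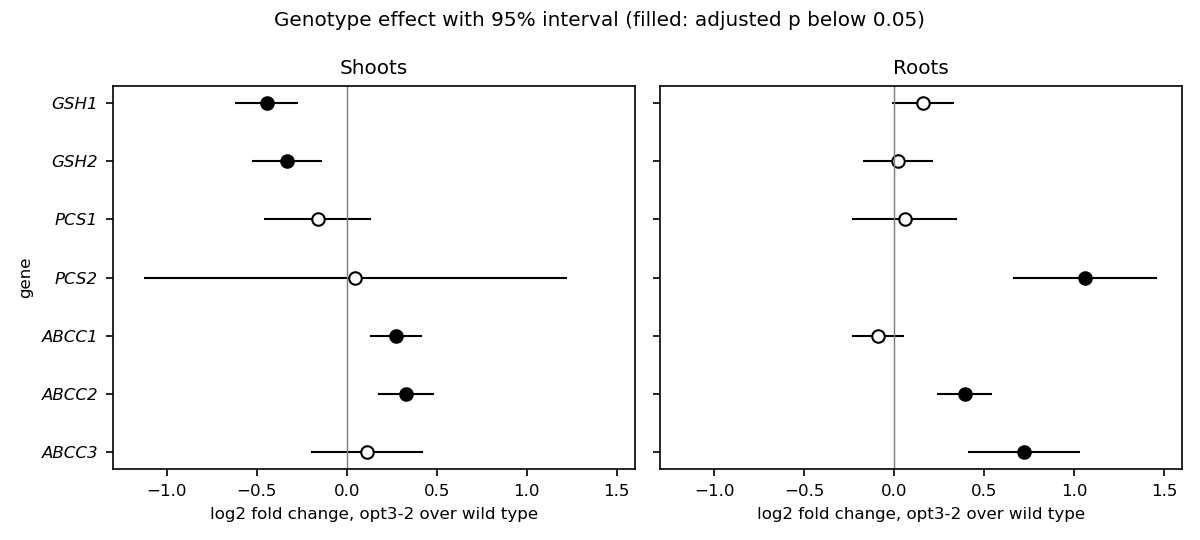
Log2 fold change of each member, opt3-2 over wild type, in shoots (left) and roots (right), with its 95% interval from edgeR; filled points have an adjusted p below 0.05. GSH1 and GSH2 lie left of 0 in shoots, ABCC1 and ABCC2 right of it, and PCS2, ABCC2 and ABCC3 lie right of 0 in roots; the interval of PCS2 in shoots spans -1.12 to 1.22.

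GSH1 encodes glutamate-cysteine ligase, the plastid enzyme whose activity limits glutathione synthesis. Its transcript stood at 206, 214 and 233 CPM in opt3-2 shoots (replicates 1 to 3), against 317, 262 and 309.8 CPM in wild type shoots. Every opt3-2 shoot library lay below every wild type one, as the libraries of 53.0% of all genes do not overlap in shoots. GSH1 fell by 0.44 on the log2 scale in opt3-2 shoots (SE 0.08; 0.73-fold, 95% interval 0.65 to 0.83; edgeR adjusted p = 0.000698). In roots it stood at 265, 246 and 253 CPM in opt3-2, against 228, 221 and 235 CPM in wild type. The groups again did not overlap, with opt3-2 roots the higher, as is the case in either direction for 53.2% of all genes in roots. The difference of 0.16 ± 0.08 (log2, SE) did not pass in edgeR (adjusted p = 0.120, 95% interval -0.01 to 0.33). It did pass in DESeq2 (adjusted p = 0.0470) and in an edgeR fit of the root libraries alone (adjusted p = 0.0261).

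GSH2 encodes glutathione synthetase, the enzyme of the second step. It stood at 81.4, 86.6 and 97.4 CPM in opt3-2 shoots, against 118, 99.5 and 116 CPM in wild type shoots. The groups did not overlap, though replicate 3 of opt3-2 and replicate 2 of wild type came within a few CPM of each other. GSH2 fell by 0.33 on the log2 scale in opt3-2 shoots (SE 0.09; 0.80-fold, interval 0.70 to 0.91; edgeR adjusted p = 0.00840). With 1 technical replicate per library the call ended (-0.28, adjusted p = 0.0670). In roots the groups overlapped, at 106, 94.3 and 93.3 CPM in opt3-2 and 95.3, 92.5 and 102 CPM in wild type. The root difference was 0.02 ± 0.09 (log2, SE; edgeR adjusted p = 0.867), with an interval of -0.17 to 0.21 that leaves room for a change of up to about 1.16-fold.

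PCS1 encodes the main phytochelatin synthase of Arabidopsis. It stood at 79.5, 85.5 and 91.8 CPM in opt3-2 shoots, against 101, 83.0 and 103 CPM in wild type shoots. Replicate 2 of wild type fell among the opt3-2 libraries, so the groups overlapped. In roots PCS1 stood at 132, 96.9 and 101 CPM in opt3-2, against 94.7, 100.1 and 121 CPM in wild type. A single high library stood out in each root group, replicate 1 of opt3-2 and replicate 3 of wild type. Neither difference passed in edgeR: -0.16 ± 0.13 in shoots (log2, SE; adjusted p = 0.355, interval -0.45 to 0.13) and 0.06 ± 0.13 in roots (adjusted p = 0.758, interval -0.23 to 0.35). A fold between 0.73 and 1.09 in shoots, or between 0.85 and 1.27 in roots, lies within these intervals.

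PCS2 encodes the second phytochelatin synthase, a less abundant copy of PCS1. Shoot libraries held 3, 2 and 3 reads of it in opt3-2 and 3, 1 and 6 in wild type, sums of 8 (exact Poisson 95% interval 3.45 to 15.8) and 10 (4.79 to 18.4). That is at or near the floor of 3 counts per library, so a difference between shoots was not detectable at this depth (such intervals and floors cover counting error only). In roots PCS2 stood at 5.02, 5.17 and 5.86 CPM in opt3-2, against 2.70, 2.73 and 2.26 CPM in wild type. These values rest on 443 and 318 reads summed over 3 libraries, and all opt3-2 libraries lay well above all wild type ones. PCS2 was 2.09-fold higher in opt3-2 roots (log2 1.06 ± 0.18, SE; interval of the fold 1.59 to 2.74; edgeR adjusted p = 0.000767). It was the member with the largest called fold change in roots.

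**Figure D2:**
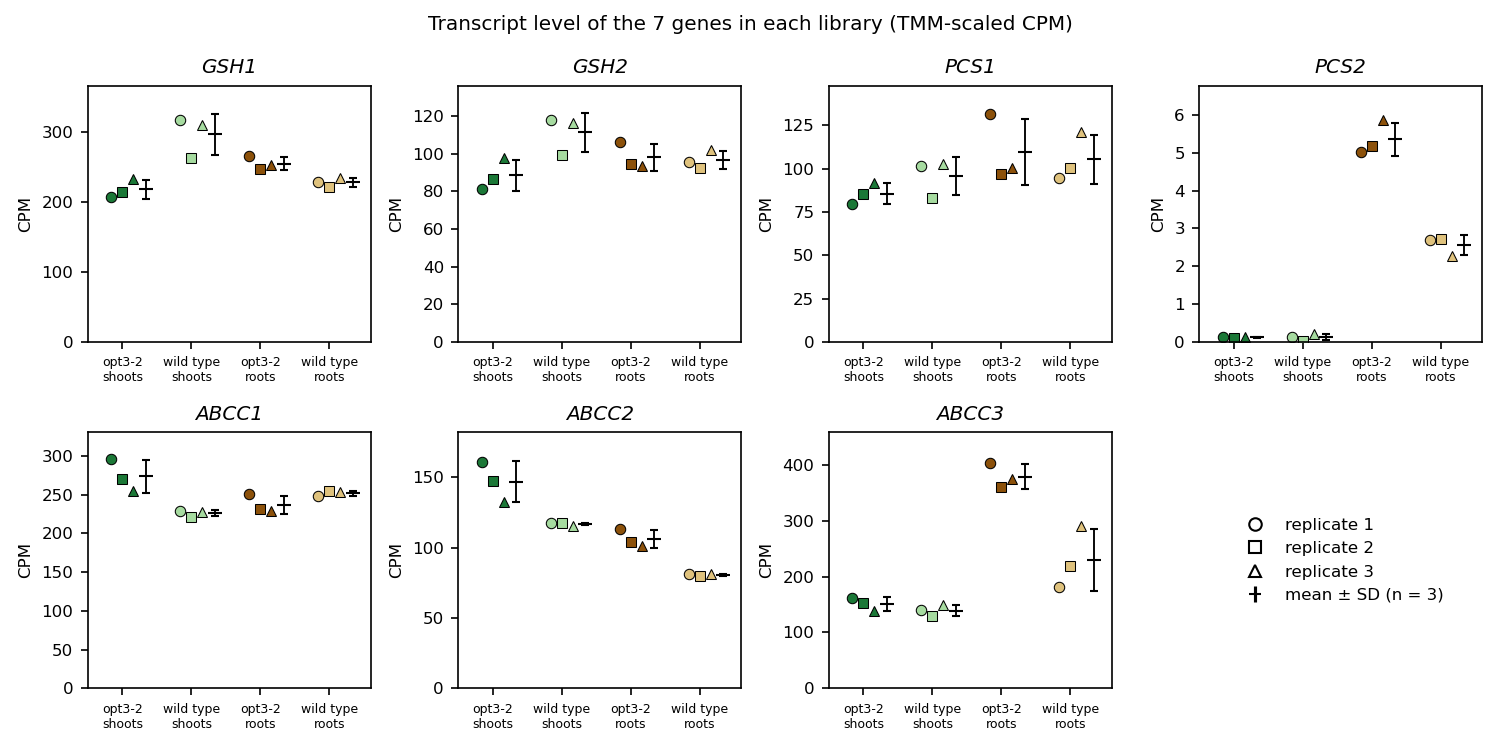
Level of each of the 7 genes in each library, in TMM-scaled CPM on axes that start at 0; points are libraries, bars the mean ± SD of 3. PCS2 is near 0 in shoots, between 5.02 and 5.86 CPM in opt3-2 roots and between 2.26 and 2.73 CPM in wild type roots, and ABCC3 reaches 360.0 to 402 CPM in opt3-2 roots.

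ABCC1 encodes one of the pair of vacuolar transporters, with ABCC2, that carry most phytochelatin into the vacuole. It stood at 297, 269.9 and 255 CPM in opt3-2 shoots, against 229.5, 221 and 228 CPM in wild type shoots. All opt3-2 shoot libraries lay above all wild type ones. ABCC1 was 1.21-fold higher in opt3-2 shoots (log2 0.27 ± 0.06, SE; edgeR adjusted p = 0.00434). In roots it stood at 250.4, 231 and 229 CPM in opt3-2, against 248, 254 and 254 CPM in wild type. The groups overlapped, with replicates 2 and 3 of opt3-2 below all wild type libraries. The difference of -0.09 ± 0.06 (log2, SE) did not pass in edgeR (adjusted p = 0.294, interval -0.23 to 0.05).

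ABCC2, the other transporter of the pair, was the member called in the same direction in both tissues. It stood at 161, 147 and 132 CPM in opt3-2 shoots, against 117, 117 and 116 CPM in wild type shoots. In roots it stood at 113, 104 and 101 CPM in opt3-2, against 81.3, 79.6 and 80.9 CPM in wild type. The groups did not overlap in either tissue, and the wild type libraries lay close together in both. ABCC2 was 1.26-fold higher in opt3-2 shoots (log2 0.33 ± 0.07, SE; interval of the fold 1.13 to 1.40; edgeR adjusted p = 0.00215). It was 1.31-fold higher in opt3-2 roots (0.39 ± 0.07; 1.18 to 1.46; edgeR adjusted p = 0.000908).

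ABCC3 encodes a further vacuolar transporter, which carries glutathione conjugates and products of chlorophyll breakdown and has been tied to phytochelatin-bound cadmium. It stood at 162, 153 and 138 CPM in opt3-2 shoots, against 139.7, 129 and 149 CPM in wild type shoots. These groups overlapped, and the difference of 0.11 ± 0.14 (log2, SE) did not pass in edgeR (adjusted p = 0.545, interval -0.19 to 0.42). In roots it stood at 402, 360.0 and 375 CPM in opt3-2, against 181, 219.6 and 289.8 CPM in wild type. The opt3-2 root libraries lay close together above all wild type ones, while the wild type libraries spread widely, with replicate 3 highest. ABCC3 was 1.65-fold higher in opt3-2 roots (log2 0.72 ± 0.14, SE; interval of the fold 1.33 to 2.04; edgeR adjusted p = 0.00185). With run suffixes 2 and 3 alone, which leave replicate 3 as the one wild type root library, the log2 difference was 0.38 (adjusted p = 0.0398), and without that replicate it was 0.92 (adjusted p = 6.03e-05). The 1 wild type root library with suffixes 2 to 4 thus had the highest ABCC3 level of its group, and the part of the run suffix in the size of the difference was not tested.

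**Figure D3:**
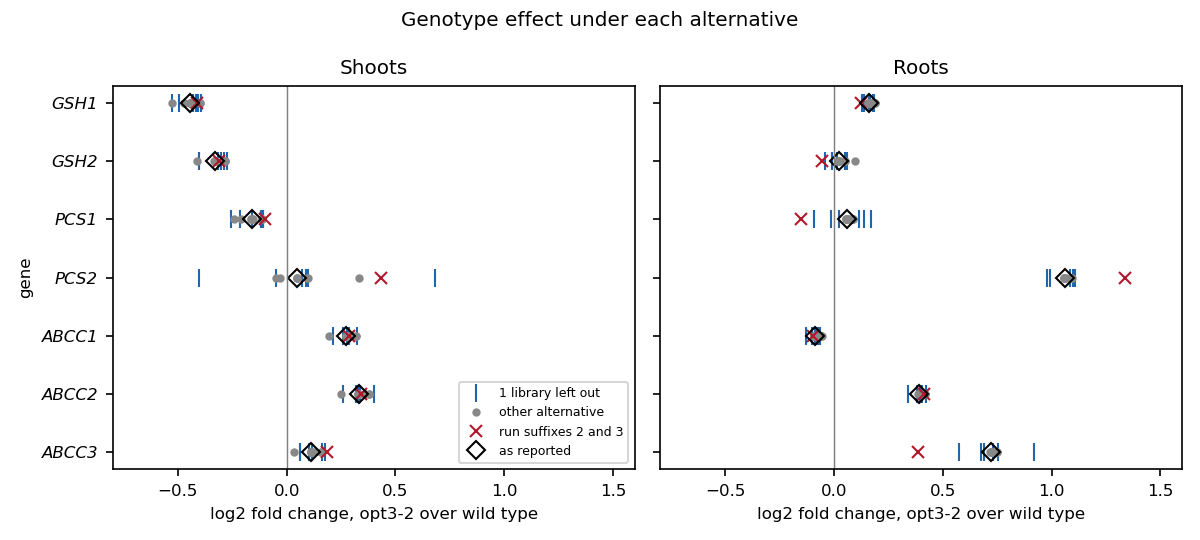
Log2 fold change of each member, opt3-2 over wild type, as reported (diamonds) and under each alternative: 1 library left out (ticks), columns with run suffixes 2 and 3 alone (crosses) and other settings (dots). ABCC3 in roots spans 0.38 to 0.92, and PCS2 in shoots, which rests on 8 and 10 reads, spans -0.40 to 0.68.

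The genotype effect itself differed between tissues for 4 of the 7 genes, 3 with a higher and 1 with a lower effect in roots, where 48.2% of all genes were called for such a difference (24.2% higher, 24.0% lower). For GSH1 the effect in roots minus that in shoots was 0.60 ± 0.11 (log2, SE; edgeR adjusted p = 0.000750), and leaving out any single library kept the call. For GSH2 it was 0.35 ± 0.12 (edgeR adjusted p = 0.0307), a call that ended in 9 of 21 alternatives. For ABCC3 it was 0.61 ± 0.20 (edgeR adjusted p = 0.0238), which ended in 5 of 21, and for ABCC1 it was -0.36 ± 0.09 (edgeR adjusted p = 0.00559), which ended in 1. That alternative was the fit on run suffixes 2 and 3, which leaves 1 wild type root library and also ended the calls of GSH2 and ABCC3. In that fit ABCC1 stood at -0.38, GSH2 at 0.26 and ABCC3 at 0.20. The difference did not pass for PCS1 (0.22 ± 0.19; adjusted p = 0.360), PCS2 (1.01 ± 0.58; adjusted p = 0.219) or ABCC2 (0.06 ± 0.10; adjusted p = 0.638, interval -0.15 to 0.27).

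Set per exon length, as RPKM (CPM per kilobase of exon), GSH1 had the highest level and PCS2 the lowest in all 4 groups. GSH1 stood at 78.2 ± 5.0 RPKM in opt3-2 shoots and 106 ± 10.7 RPKM in wild type shoots, and at 91.4 ± 3.37 RPKM in opt3-2 roots and 81.9 ± 2.40 RPKM in wild type roots (SD, n = 3 each). In opt3-2 shoots ABCC1 (45.0 ± 3.49 RPKM), GSH2 (43.8 ± 4.04) and PCS1 (41.0 ± 2.96) followed, with overlapping neighbours, and ABCC3 (26.8 ± 2.17) and ABCC2 (24.4 ± 2.37) came next, also overlapping. In wild type shoots the order was GSH2 (55.0 ± 5.06 RPKM) and PCS1 (45.9 ± 5.30), which overlapped, then ABCC1 (37.2 ± 0.69), ABCC3 (24.7 ± 1.78) and ABCC2 (19.4 ± 0.17), each apart from the next. In opt3-2 roots ABCC3 held second place, at 67.4 ± 3.84 RPKM, apart from PCS1 (52.6 ± 9.15) and GSH2 (48.5 ± 3.59), which overlapped, and from ABCC1 (38.9 ± 1.92) and ABCC2 (17.6 ± 1.05). In wild type roots ABCC3 stood lower in the order, at 40.9 ± 9.84 RPKM and overlapping ABCC1 (41.4 ± 0.55), behind PCS1 (50.5 ± 6.75) and GSH2 (47.7 ± 2.31) and ahead of ABCC2 (13.4 ± 0.15). PCS2 stood at 3.15 ± 0.26 RPKM in opt3-2 roots and 1.51 ± 0.15 RPKM in wild type roots.

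Ratios between neighbours on the route, taken within a library per exon length, are independent of how libraries were scaled. PCS1 over GSH1 was 0.515, 0.533 and 0.525 in opt3-2 shoots, against 0.427, 0.422 and 0.443 in wild type shoots, which did not overlap. In roots this ratio overlapped, at 0.573 ± 0.078 in opt3-2 and 0.616 ± 0.068 in wild type (SD, n = 3 each). GSH1 over GSH2 was 1.79 ± 0.05 in opt3-2 shoots and 1.93 ± 0.02 in wild type shoots, and 1.89 ± 0.08 in opt3-2 roots and 1.72 ± 0.03 in wild type roots, with no overlap in either tissue. For ABCC1 over ABCC2 the values were 2.19, 2.21 and 2.25 in opt3-2 roots, against 3.02, 3.16 and 3.10 in wild type roots. The same pair overlapped in shoots, at 1.85 ± 0.05 in opt3-2 and 1.92 ± 0.05 in wild type. ABCC3 over ABCC1 was 1.74, 1.68 and 1.77 in opt3-2 roots, against 0.787, 0.934 and 1.24 in wild type roots, so ABCC3 exceeded ABCC1 in every opt3-2 root library and in 1 of 3 wild type ones. PCS2 over PCS1 was 0.0614 ± 0.0129 in opt3-2 roots and 0.0305 ± 0.0066 in wild type roots, again without overlap. No exact test of 3 libraries against 3 can give a two-sided p below 0.1, so these ratios carry no test. The share of other gene pairs whose ratios do not overlap was not measured. For levels of single genes it was 53.0% in shoots and 53.2% in roots, so lack of overlap alone is not read as a result.

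**Figure D4:**
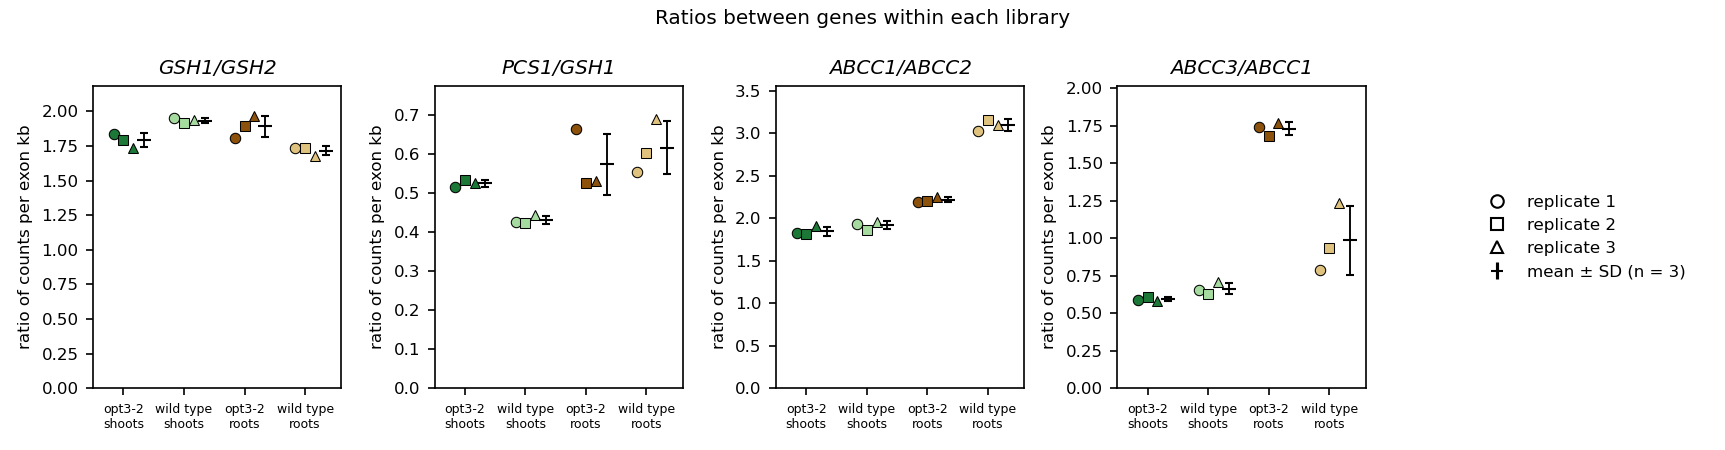
Ratio of counts per exon kilobase between pairs of members within each library; points are libraries, bars the mean ± SD of 3, and axes start at 0. ABCC1 over ABCC2 is 2.22 ± 0.03 in opt3-2 roots and 3.10 ± 0.07 in wild type roots, and ABCC3 over ABCC1 is 1.73 ± 0.04 in opt3-2 roots and 0.986 ± 0.229 in wild type roots.

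Between organs, the route's genes were spread unevenly, and PCS2 and ABCC3 were higher in roots in both genotypes. PCS2 was 42.0-fold higher in roots than in shoots of opt3-2 (interval 26.6 to 66.2) and 20.8-fold higher in wild type (13.2 to 32.7). These folds rest on the few shoot reads given above. PCS2 passed the low-count filter only through roots, so no p-value is given for it here and its call between organs is not evidence. ABCC3 was 2.52-fold higher in roots of opt3-2 (interval 2.03 to 3.12; edgeR adjusted p = 2.21e-06) and 1.65-fold higher in those of wild type (1.34 to 2.04; edgeR adjusted p = 0.000465). ABCC2 was lower in roots in both, at 0.72-fold in opt3-2 (edgeR adjusted p = 3.27e-05) and 0.69-fold in wild type (edgeR adjusted p = 1.33e-05). In all, 4 members, PCS2 included, were higher and 2 lower in roots of opt3-2, where 84.6% of all genes were called (43.6% higher, 41.0% lower). In roots of wild type 3 were higher, PCS2 included, and 3 lower, where 78.0% were called (39.5% higher, 38.6% lower). With library sizes alone as scaling, the median of all genes moved by 0.43 (log2) in opt3-2 and by 0.35 in wild type, so the organ differences are relative to the TMM scale. On that other scale ABCC2 no longer passed in opt3-2 (-0.04; adjusted p = 0.588).

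The other organ differences were small, and several depend on scaling. GSH1 was higher in roots than in shoots of opt3-2 (log2 0.23 ± 0.08, SE; edgeR adjusted p = 0.0159) and lower in roots than in shoots of wild type (-0.38 ± 0.08; edgeR adjusted p = 0.000640). The first call ended without replicate 1 of either opt3-2 group (adjusted p = 0.0646 without the shoot one, 0.0541 without the root one), and the second with library sizes alone (-0.03; adjusted p = 0.761) and with run suffixes 2 and 3 (-0.30; adjusted p = 0.0632). PCS1 was higher in roots of opt3-2 (0.36 ± 0.13; edgeR adjusted p = 0.0244), a call that ended without opt3-2 root replicate 1 (0.21; adjusted p = 0.123) and without shoot replicates 1 (adjusted p = 0.0844) or 2 (adjusted p = 0.0573). ABCC1 was lower in roots of opt3-2 (-0.21 ± 0.06; edgeR adjusted p = 0.00885) but stood at 0.22 with library sizes alone (adjusted p = 0.00786), so its direction is not settled. In wild type ABCC1 was higher in roots (0.16 ± 0.06; edgeR adjusted p = 0.0406), a call that ended whichever of the 6 wild type libraries was left out (adjusted p from 0.0593 to 0.0930). GSH2 was lower in roots of wild type (-0.21 ± 0.09; edgeR adjusted p = 0.0437), which ended in 8 of 16 alternatives and, in another, turned to 0.15 with library sizes alone. GSH2 in opt3-2 (0.15 ± 0.09; adjusted p = 0.129) and PCS1 in wild type (0.14 ± 0.13; adjusted p = 0.349) did not pass.

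Upstream of the route lies cysteine synthesis, for which 12 genes were listed. The counts of this and the following lists stand against the 43.9% of all genes called in shoots and 39.0% in roots, and nothing is read from them about a list. In opt3-2 shoots 5 rose (the serine acetyltransferase genes SERAT2;1 and SERAT3;1, the plastid cysteine synthase gene OASB, CYSD2 and DES1) and 3 fell (SERAT1;1, the mitochondrial cysteine synthase gene OASC, and CYSC1). DES1, which breaks cysteine down rather than making it, stood at 35.1 ± 4.76 CPM in opt3-2 shoots and 16.7 ± 2.92 CPM in wild type shoots (log2 1.07 ± 0.15, SE; edgeR adjusted p = 0.000335). CYSC1 also consumes cysteine, in the detoxification of cyanide. In opt3-2 roots 3 rose (SERAT2;1, SERAT2;2 and OASC) and 4 fell (SERAT1;1, SERAT3;1, OASB and CYSD1). Thus SERAT2;1 rose (0.51 ± 0.09 in shoots, 0.41 ± 0.09 in roots) and SERAT1;1 fell (-0.55 ± 0.09 and -0.35 ± 0.09) in both tissues. OASC fell in shoots and rose in roots (root minus shoot effect 0.86 ± 0.09; edgeR adjusted p = 2.71e-05), and OASB did the reverse (-0.57 ± 0.07; edgeR adjusted p = 6.02e-05). Beyond the edgeR calls, DESeq2 called CYSD1 higher in opt3-2 shoots (adjusted p = 0.0249) and OASA1 higher in opt3-2 roots (adjusted p = 0.0292). DES1, GGCT2;1 and ABCC6 were named by a rule on size and level, and the other genes of this and the next paragraphs after their values were seen.

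Of 2 glutathione reductase genes, whose products return oxidised glutathione to its thiol form, GR1 fell in opt3-2 shoots and rose in opt3-2 roots. It stood at 141, 154 and 143 CPM in opt3-2 shoots, against 208, 174 and 212 CPM in wild type shoots, and at 218, 210.1 and 197 CPM in opt3-2 roots, against 145, 148 and 124 CPM in wild type roots. The groups did not overlap in either tissue, and they stood in opposite order. The effects were -0.44 ± 0.09 in shoots (log2, SE; edgeR adjusted p = 0.00180) and 0.58 ± 0.09 in roots (edgeR adjusted p = 0.000352). Their difference was 1.03 ± 0.13 (edgeR adjusted p = 5.28e-05), the same sign as that of GSH1. The other gene, GR2, stood at 0.11 ± 0.05 in shoots (edgeR adjusted p = 0.102) and -0.10 ± 0.05 in roots (edgeR adjusted p = 0.136), and its difference had the opposite sign (-0.22 ± 0.07; edgeR adjusted p = 0.0294). DESeq2 called GR2 higher in opt3-2 shoots (adjusted p = 0.00234). Among 3 plastid thiol carrier genes, which move glutathione and its precursor across the plastid envelope, CLT2 (-0.35 ± 0.09) and CLT3 (-0.51 ± 0.12) fell in opt3-2 roots. In shoots 0 of the 3 passed in edgeR, at an unadjusted p under 0.05, in DESeq2 or in limma-voom.

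Of 9 glutathione breakdown genes 2 rose in each tissue of opt3-2, GGCT2;1 and GGCT2;2, whose products cleave cytosolic glutathione. GGCT2;1 stood at 2.82, 2.35 and 2.52 CPM in opt3-2 shoots, against 0.620, 1.13 and 0.891 CPM in wild type shoots, and at 17.1, 18.5 and 21.1 CPM in opt3-2 roots, against 6.44, 6.32 and 5.58 CPM in wild type roots. No opt3-2 library overlapped the wild type ones of its tissue. The effects were 1.53 ± 0.19 in shoots (log2, SE; edgeR adjusted p = 7.97e-05) and 1.63 ± 0.13 in roots (edgeR adjusted p = 4.05e-06). GGCT2;2 stood at 0.26 ± 0.10 in shoots (edgeR adjusted p = 0.0459), a call that limma-voom did not make (adjusted p = 0.0518), and 0.69 ± 0.09 in roots (edgeR adjusted p = 0.000160). In shoots 1 gene of this list fell, AT1G44790 (-0.25 ± 0.09; edgeR adjusted p = 0.0499), which DESeq2 and limma-voom did not call. The other 6 genes in shoots and 7 in roots did not pass in edgeR. Of these, GGP3 in shoots passed in DESeq2 (adjusted p = 0.0307), and GGT1 in roots in DESeq2 (adjusted p = 0.0148) and limma-voom (adjusted p = 0.0490).

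Shares of the 15 genes of the ABCC family were taken within each library from counts divided by exon length and summed over the family. By this measure ABCC1 to ABCC3 held 42.3 ± 2.47% in opt3-2 shoots and 39.5 ± 0.29% in wild type shoots (SD, n = 3 each). In roots they held 43.0 ± 0.58% in opt3-2 and 39.4 ± 2.82% in wild type (SD, n = 3 each). ABCC3 alone took 23.5, 22.7 and 23.9% in opt3-2 roots, against 13.8, 16.1 and 20.6% in wild type roots, without overlap. Levels of 53.2% of all genes do not overlap in roots either. Of the 12 other family members, 2 rose (ABCC6 and ABCC14) and 3 fell (ABCC4, ABCC11 and ABCC12) in opt3-2 shoots. In opt3-2 roots 4 rose (ABCC6, ABCC7, ABCC9 and ABCC13) and 4 fell (ABCC8, ABCC10, ABCC12 and ABCC14). In shoots DESeq2 did not call ABCC12 (adjusted p = 0.0906) and limma-voom did not call ABCC11 (adjusted p = 0.0583). Further, limma-voom called ABCC10 in shoots and ABCC15 in roots, and DESeq2 ABCC4 in roots, all higher in opt3-2. Over all genes 21.3% were called higher and 22.6% lower in shoots, and 17.5% higher and 21.5% lower in roots.

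**Figure D5:**
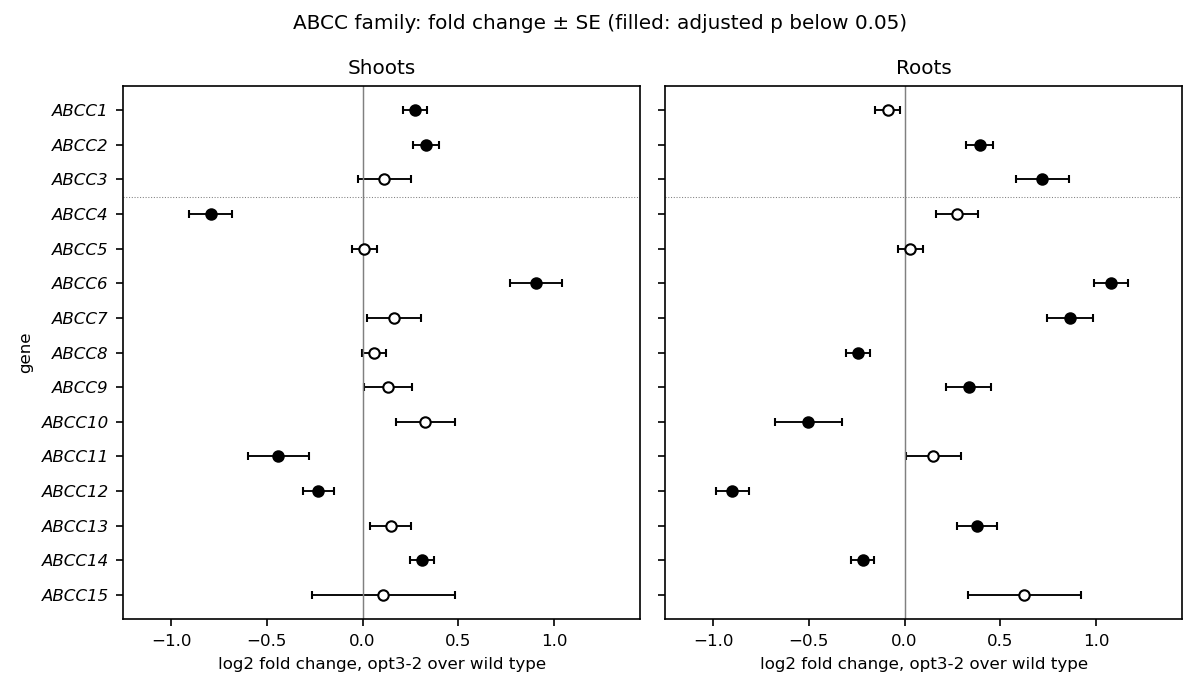
Log2 fold change ± SE of all 15 ABCC genes, opt3-2 over wild type, in shoots (left) and roots (right); filled points have an edgeR adjusted p below 0.05 and the dotted line sets ABCC1 to ABCC3 apart. In roots ABCC6 (1.08), ABCC7 (0.87) and ABCC3 (0.72) lie farthest to the right among filled points and ABCC12 (-0.90) farthest to the left.

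ABCC3 lies in a tandem row on the minus strand of chromosome 3 with ABCC6 (chr3:4202811-4208261) and ABCC7 (chr3:4208729-4214530), with which it shares 73.1% and 72.0% of aligned coding bases. All 3 rose in opt3-2 roots. ABCC6 stood at 53.4, 62.4 and 59.1 CPM in opt3-2 roots, against 28.2, 27.0 and 27.5 CPM in wild type roots (log2 1.08 ± 0.09, SE; edgeR adjusted p = 4.35e-06). ABCC7 stood at 147, 123 and 125 CPM in opt3-2 roots, against 63.3, 69.5 and 84.2 CPM in wild type roots (0.87 ± 0.12; edgeR adjusted p = 0.000189). In both, the opt3-2 root libraries lay above all wild type ones; as for ABCC3, wild type root replicate 3 was the highest of its group for ABCC7. In shoots ABCC6 also rose, at 3.12 ± 0.05 CPM in opt3-2 and 1.65 ± 0.37 CPM in wild type (0.91 ± 0.14; edgeR adjusted p = 0.000289), whereas ABCC7 stood at 0.16 ± 0.14 (adjusted p = 0.385). The annotated start of ABCC7 overlaps the end of SERAT2;2 on the same strand, so counts of that pair are uncertain at the shared bases. ABCC1 heads another row, on the plus strand of chromosome 1, with ABCC12 (chr1:10738683-10747563) and ABCC11 (chr1:10748261-10756695). In opt3-2 shoots, where ABCC1 rose, ABCC12 (-0.23 ± 0.08; edgeR adjusted p = 0.0384) and ABCC11 (-0.44 ± 0.16; edgeR adjusted p = 0.0422) fell, the first without passing in DESeq2 and the second without passing in limma-voom.

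The genes whose profiles lay nearest to those of the members were found by the root mean square difference between log2 CPM profiles over the 12 libraries, each centred on its own mean. Nearest to GSH1 were AT1G27700 (0.06) and QUA1 (0.06), where GSH1 itself departs from its mean by 0.19. For GSH2 (own departure 0.15) they were AT1G56423 (0.06) and SEC6 (0.07), and for PCS1 (0.20) AtIPCS2 (0.07) and NSL1 (0.08). For ABCC1 (0.12) they were PRT6 (0.04) and TPR8 (0.05), and for ABCC2 (0.32) AT5G17010 (0.06) and ML4 (0.07). ABCC3 (0.60) was nearest to AT5G17650 (0.12) and to the glutathione transferase gene GSTF8 (0.14). GSTF8 stood at 168 ± 9.89 CPM in opt3-2 shoots and 171 ± 18.1 CPM in wild type shoots, and at 455 ± 25.6 CPM in opt3-2 roots and 267 ± 36.6 CPM in wild type roots. PCS2 (2.24) had the largest distances, to AT3G27480 (0.31) and AT4G38140 (0.33), both near 0 in shoots, where PCS2 itself rests on few reads. These distances describe 12 libraries that differ mostly by tissue.

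Some marker genes of cell types also differed between genotypes, where 43.9% of all genes were called in shoots and 39.0% in roots. Whether tissue make-up moved was not tested, and in bulk samples fewer cells of a type and less RNA per cell cannot be told apart. Of 4 phloem markers 3 rose in opt3-2 shoots (AHA3, SUC2 and APL), and their summed level was 981 to 1044 CPM in opt3-2 shoots and 697 to 852 CPM in wild type shoots. In roots 1 of 4 rose (SUC2), at 126 to 140 CPM summed in opt3-2 and 95.9 to 123 CPM in wild type. Of 6 leaf markers 2 rose in opt3-2 shoots (RCA and PSBO1), at 40120 to 40930 CPM in opt3-2 shoots and 29470 to 35360 CPM in wild type shoots. Of 6 root markers 2 fell in opt3-2 roots (PYK10 and SCR), at 2155 to 2354 CPM in opt3-2 roots and 3091 to 3424 CPM in wild type roots. No marker had 0 counts over a group. The part of these shifts in the differences of the members was not tested.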

How the data were processed

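The authors deposited a table of raw read counts per gene for shoots and roots of opt3-2 and wild type plants after cadmium, with 28775 genes and 36 columns, of which 0 belong to no sample. The submitters' processing notes name the tools TopHat2 and edgeR and the TAIR10 build. How reads were counted, by strand or with several matches, is not given in the sources used here.

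Technical replicates varied by 1.02 to 1.06 times the Poisson value and were summed, giving 12 libraries in 4 groups of 3. The test was the robust quasi-likelihood F test of edgeR 4.0.16 (R 4.3.3), two-sided, with TMM factors and 1 mean per group. It ran on the 21887 genes kept by filterByExpr, with 8 residual degrees of freedom and a common dispersion whose square root was 0.115. A gene was called at a Benjamini-Hochberg adjusted p below 0.05 over these genes. The SE is the log2 fold change divided by the square root of F, and 95% intervals use the moderated degrees of freedom. CPM use the TMM-scaled library sizes, and RPKM divide them by the merged exon length in TAIR10.1. A floor of 3 counts is 0.0705 to 0.167 CPM per library. The fit was also run on simulated counts with a common dispersion and few changed genes. These data differ from that setting, so the run does not show the error rate here.

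The 5 comparisons set opt3-2 against wild type within each tissue, these effects against each other, and roots against shoots within each genotype. The members, the gene lists and the markers were chosen with earlier results of these data known, so no list is independent evidence. All members are named; so are, from each further list, at most 4 called genes with an absolute log2 fold change of at least 1 and at least 5 CPM in 1 group, and the 2 genes nearest to each member. Gene names and sequences came from RefSeq (TAIR10.1), which matched 28009 of the 28775 codes. Alternatives were RLE factors, library sizes alone, DESeq2 1.42.0, limma-voom (limma 3.58.1), no low-count filter or 1 CPM in 3 libraries, only the libraries compared, a replicate block, 1 technical replicate, run suffixes 2 and 3, and each library left out in turn.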

Additional observations from a re-analysis of the deposited data

Results flagged for a closer look

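The following results stand out because the effect of the genotype differed between roots and shoots, by edgeR's test of the difference itself (root effect minus shoot effect, log2, adjusted p below 0.05). GSH1, lower in opt3-2 shoots than in wild type shoots and higher without passing in opt3-2 roots, gave 0.60. GSH2, lower in opt3-2 shoots, gave 0.35. ABCC3, higher in opt3-2 roots, gave 0.61. ABCC1, higher in opt3-2 shoots, gave -0.36. Such a difference was called for 48.2% of all genes tested. The calls of GSH2, ABCC3 and ABCC1 ended with run suffixes 2 and 3 alone, a fit that leaves 1 wild type root library and fewer columns. In that fit the value was smaller for GSH2 (0.26) and ABCC3 (0.20), but not for ABCC1.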

How the results depend on the processing

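Over the 7 genes and 5 comparisons, 535 of 594 alternative values kept the direction and the side of the threshold, 40 lost the threshold, 5 passed it newly and 14 changed sign. The calls of GSH1, ABCC1 and ABCC2 in shoots and of PCS2, ABCC2 and ABCC3 in roots held in all 16 alternatives of each.

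Of the sign changes, 12 of 14 were in differences that had not passed. For PCS2 in shoots the value turned to -0.031 with library sizes alone and -0.048 with the first technical replicate, and leaving out single libraries gave -0.40 to 0.68. For GSH2 in roots it turned to -0.055 with run suffixes 2 and 3, and leaving out single libraries gave -0.042 to 0.060. For PCS1 in roots it turned to -0.15 with those suffixes, and leaving out single libraries gave -0.094 to 0.17. The root minus shoot effect turned to -0.052 for PCS1 with those suffixes, and leaving out single libraries gave -0.011 to 0.13 for ABCC2. With library sizes alone, the roots against shoots differences turned to 0.22 for ABCC1 in opt3-2 and to 0.15 for GSH2 in wild type.

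With the first technical replicate alone 1 member was lower in opt3-2 shoots and 1 lower in roots against shoots of opt3-2. Run suffixes 2 and 3 called 3803 genes in roots, against 8530, and 6707 for the root minus shoot effect, against 10542. They left 1 member higher and 0 lower for that effect, and 1 lower in roots against shoots of wild type. In this setting 1 wild type root library remains, which is assumed to vary like the other groups. With library sizes alone 0 members were lower in roots against shoots of opt3-2 and 1 in wild type. Leaving out each library gave 1 to 3 members higher for the root minus shoot effect and 2 to 4 higher in roots against shoots of opt3-2. In each case the cause was not tested.

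Of the genes called in shoots 48.5% were higher in opt3-2 with TMM factors and 35.4% with library sizes alone; in roots against shoots the share higher was 51.5% against 66.8% in opt3-2 and 50.6% against 67.6% in wild type. No pairing by replicate number was seen across genes: deviations of same-numbered samples correlated from -0.306 to 0.119. This does not show whether roots and shoots of one number came from the same plants. With the replicate block 9202 genes were called in shoots, 8028 in roots, 10189 for the root minus shoot effect, and 18333 and 16908 in roots against shoots of opt3-2 and wild type. Depth limits PCS2 in shoots, at 8 reads in opt3-2 and 10 in wild type.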
